A study of Mus musculus with 6 samples.

Results

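The genes described here are 10 sensors, feedback regulators and targets of the 2 transcription factors through which mammalian cells respond to foreign chemicals, AHR and NRF2. They are Ahr, Ahrr, Tiparp, Cyp1a1 and Cyp1b1 on the AHR side, and Nfe2l2 (which encodes NRF2), Nqo1, Hmox1, Gclm and Srxn1 on the NRF2 side. They were taken by gene symbol from the 54838 gene identifiers of the count table, and all 10 were found. RNA was sequenced from mouse splenic B cells in 6 libraries, 3 from cells given Cpd10, a small-molecule inhibitor of FOXO1, at 1 µM and 3 from cells given DMSO. All cells started as sorted naive B cells of 10 pooled male mice, 3 months old and 9 days after immunisation with sheep red blood cells, from 2 experiments; the labels name no strain. Interleukin 4 (80 ng/ml) and anti-CD40 (5 µg/ml) were given to both groups throughout the 5 days of culture, in an embryonic stem cell medium, and Cpd10 or DMSO was present for the last 48 hours. Because the cells were pooled before culture, the 3 libraries of a group are not separate animals. The labels give 10 mice and 2 experiments alike for every library, so which experiment or pool a library came from is not known here. The question put to these genes is whether the compound set off a transcriptional response to xenobiotics.

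AHR is a cytosolic receptor for planar aromatic compounds and tryptophan metabolites. Once bound, it enters the nucleus, pairs with ARNT and binds DNA at a short core motif near its targets, of which Cyp1a1, Cyp1b1, Ahrr and Tiparp are the classical ones; AHRR and TIPARP then restrain the receptor. NRF2 is held in the cytosol and sent for degradation by KEAP1 until electrophiles or oxidants modify KEAP1. It then binds antioxidant response elements with small MAF proteins, in competition with the repressor BACH1, and drives genes for quinone reduction, glutathione synthesis and haem breakdown. AHR is known to be expressed in activated B cells, including those stimulated with interleukin 4.

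The promoters of 4 of these genes are shown to set the DNA motifs of the 2 pathways beside the expression values: Tiparp and Cyp1a1 as AHR targets, and Nqo1 and Gclm as the NRF2 targets that lay furthest from and close to equal levels in the 2 groups. Each is the RefSeq window (GRCm38.p6) from 250 bases before to 50 after the annotated start. Capitals mark the AHR core GCGTG and the antioxidant element TGACNNNGC, each searched on both strands; the 2 motifs overlap nowhere in these 4 windows. The windows are chr3:65528197-65528496 (plus strand) for Tiparp, chr9:57697363-57697662 (plus) for Cyp1a1, chr8:107403156-107403455 (minus) for Nqo1 and chr3:122245307-122245606 (plus) for Gclm.
Tiparp: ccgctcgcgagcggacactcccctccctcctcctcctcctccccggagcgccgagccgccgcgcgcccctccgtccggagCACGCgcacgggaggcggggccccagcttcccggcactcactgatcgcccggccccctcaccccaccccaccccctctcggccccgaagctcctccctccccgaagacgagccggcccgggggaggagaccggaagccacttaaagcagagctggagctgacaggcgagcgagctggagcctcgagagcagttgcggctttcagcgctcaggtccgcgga
Cyp1a1: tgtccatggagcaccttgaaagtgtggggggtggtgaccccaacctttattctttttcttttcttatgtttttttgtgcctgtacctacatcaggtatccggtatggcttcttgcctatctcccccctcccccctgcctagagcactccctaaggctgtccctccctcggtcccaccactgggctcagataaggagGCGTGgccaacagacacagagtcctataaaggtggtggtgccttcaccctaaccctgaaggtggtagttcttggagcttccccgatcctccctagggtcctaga
Nqo1: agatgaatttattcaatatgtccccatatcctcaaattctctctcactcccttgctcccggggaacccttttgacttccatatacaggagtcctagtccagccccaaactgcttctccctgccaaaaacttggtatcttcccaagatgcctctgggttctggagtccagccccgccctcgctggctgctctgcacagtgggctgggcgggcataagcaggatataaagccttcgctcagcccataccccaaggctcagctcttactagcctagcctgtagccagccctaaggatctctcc
Gclm: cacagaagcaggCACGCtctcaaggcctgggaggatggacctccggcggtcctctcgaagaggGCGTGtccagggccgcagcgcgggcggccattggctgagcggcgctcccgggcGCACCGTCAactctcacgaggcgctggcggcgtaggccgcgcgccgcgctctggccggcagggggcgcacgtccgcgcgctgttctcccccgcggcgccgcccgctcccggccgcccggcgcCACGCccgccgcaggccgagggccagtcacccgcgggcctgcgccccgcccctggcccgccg

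Windows of 8 members were matched, and none was available for Ahr or Hmox1. The AHR core was in those of Ahrr (3 matches), Tiparp (1), Cyp1a1 (1), Cyp1b1 (1), Gclm (3) and Srxn1 (2), and in neither that of Nfe2l2 nor that of Nqo1. The antioxidant element was in those of Nfe2l2, Gclm and Srxn1, with 1 match each. Across all 32817 promoter windows of this length, 32.4% held the AHR core and 12.4% the antioxidant element. A match to the AHR core is therefore common, and one to the antioxidant element less so. The window of Nqo1 held these letters nowhere, which says nothing about elements further from its start.

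Total counts ran from 38110927 to 44859930 in Cpd10 libraries and from 36873204 to 42798114 in DMSO libraries. The libraries also fell into 2 sets of 3 that crossed the treatment: Cpd10 A, DMSO A and DMSO C (set 1) and Cpd10 B, Cpd10 C and DMSO B (set 2). The sets were read from the counts and are not in the labels; the first principal component of log2 CPM, with 46.3% of the variance, separated them. B cell markers (8 genes) summed to between 5270 and 6330 CPM (counts scaled to library size) in Cpd10 and between 5720 and 6370 CPM in DMSO. T cell markers (8 genes) summed to between 22.3 and 27.2 CPM in Cpd10 and between 39.8 and 51.7 CPM in DMSO. Nearly all of it was Lck (21.0 to 26.2 CPM in Cpd10, 37.3 to 49.0 CPM in DMSO). Cd3e, Cd3g, Cd3d, Cd4 and Cd8a were each at 0 to 0.385 CPM. Trac was at 0.254 to 0.639 CPM in Cpd10 and 0.584 to 1.29 CPM in DMSO. Cd5 was at 0.319 to 0.964 CPM in Cpd10 and 0.743 to 1.65 CPM in DMSO. Low counts were mostly even: of genes with 1 to 10 counts in a library, 77.8% to 80.0% had an even count, against 51.1% to 52.6% of genes above 1000. The sources used here do not say how the reads of a pair were counted, so counting intervals of low genes may be too narrow. Fewer cells of a type and less RNA per cell cannot be told apart in these bulk samples.

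No member passed the test in either direction. By edgeR's quasi-likelihood test 0 of the 8 tested members had an adjusted p under 0.05, beside 0.37% of all 15136 genes tested (0.0529% lower, 0.317% higher in Cpd10). Before adjustment 2 of the 8, Nqo1 and Nfe2l2, had p under 0.05, both lower in Cpd10, and 0 were higher. Of all genes, 4.53% were lower and 3.86% higher at that level. DESeq2 called 1 member (Nqo1, lower) beside 0.602% of its 25082 genes called lower, and limma-voom called 0 beside 0.33% of all genes. EdgeR also called 1 (Nqo1, lower) without the filter on low counts, beside 0.279% of 25099 genes lower. With the library set as a term it called 1 (Nqo1, lower), beside 1.64% lower. The DESeq2 and no-filter shares include genes too low for the filter, unlike the 8 members. Of the 8, 7 had a fitted log2 fold change below 0, as had 50.2% of all tested genes, and their median was -0.43, beside -0.0012 for all tested genes. In 4 of the 8, Ahrr, Tiparp, Nfe2l2 and Nqo1, each Cpd10 library lay below each DMSO library, which 7.32% of tested genes did. In 0 of the 8 did the Cpd10 libraries all lie above, beside 7.31% of tested genes. All 8 passed the filter on low counts in each of the 6 libraries. Cyp1a1 and Cyp1b1 did not pass it and were not tested.

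**Figure D1:**
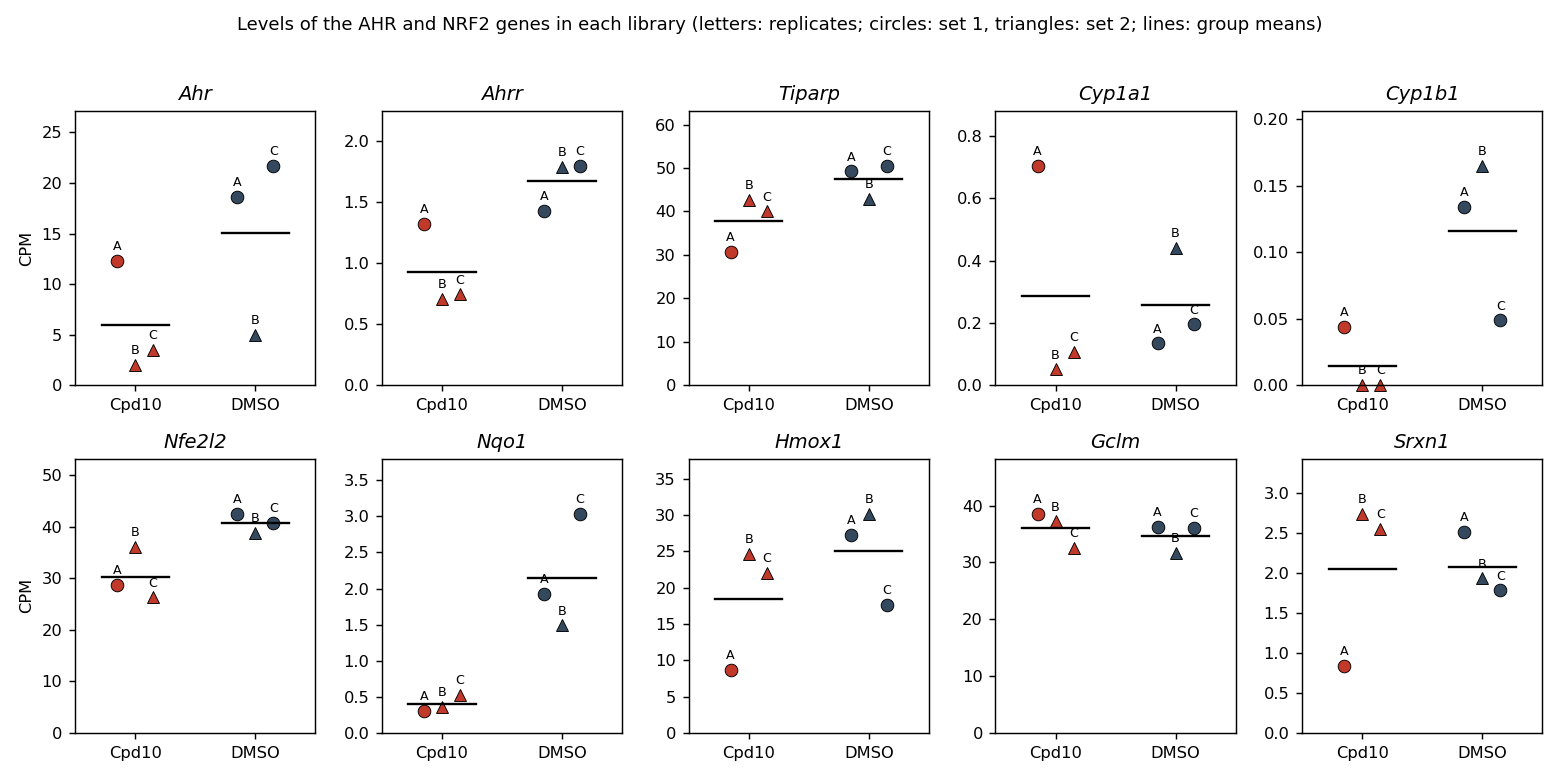
CPM (vertical axes, from 0) of each of the 10 genes in the 3 Cpd10 and the 3 DMSO libraries; letters name replicates, circles are set 1, triangles set 2, and lines are group means. Nqo1 is at 0.532 CPM or less in Cpd10 and at 1.49 CPM or more in DMSO, while Ahr is split more by set than by treatment.

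Ahr, the receptor gene (chromosome 12, 35497974 to 35535038, ENSMUSG00000019256), was at 12.3, 2.03 and 3.51 CPM in Cpd10 replicates A, B and C, against 18.6, 4.95 and 21.7 CPM in DMSO replicates A, B and C. The groups overlapped, because Cpd10 A lay above DMSO B. The 2 sets did not overlap: set 1 held 12.3 to 21.7 CPM and set 2 held 2.03 to 4.95 CPM. Of 6 plasma cell markers, Jchain, Sdc1, Prdm1, Tnfrsf17 and Slamf7 were higher in each library of set 1 than in each of set 2. Xbp1 did not follow the sets. It was at 1390, 1270 and 1310 CPM in Cpd10 A, B and C, against 1030, 1070 and 1520 CPM in DMSO A, B and C. Jchain was at 732, 262 and 224 CPM in Cpd10 A, B and C, against 730, 407 and 2060 CPM in DMSO A, B and C. Sdc1 was at 37.7, 7.41 and 6.87 CPM in Cpd10 A, B and C, against 39.2, 10.7 and 87.7 CPM in DMSO A, B and C. The list of 6 plasma cell markers, mostly Xbp1 and Jchain, summed to between 1900 and 2570 CPM in Cpd10 and between 1830 and 4110 CPM in DMSO, and its part in the Ahr values was not tested. For Ahr the log2 fold change was -1.34 (SE 0.81, 95% interval -3.31 to 0.63, edgeR adjusted p = 0.764), and without Cpd10 A it was -2.44. Within set 1 the difference in log2 CPM (prior count 2) was -0.70, and within set 2 it was -0.88. Adding the set to the fit gave a log2 fold change of -0.77 (SE 0.21) and an edgeR adjusted p of 0.0699. The 3 genes whose levels ran most like those of Ahr over the 6 libraries, of 8522 genes that averaged at least 10 CPM, were Zfp263, Smcr8 and Lrrc8c (Pearson r of 0.995, 0.995 and 0.993). All 6 points share that split into sets. Pearson r leaves out the size of a difference: Zfp263 ran only from 64.6 to 76.9 CPM.

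Tiparp, the feedback ADP-ribosyltransferase of the receptor (chromosome 3, 65528410 to 65555518, ENSMUSG00000034640), was at 30.7, 42.6 and 40.0 CPM in Cpd10 A, B and C, against 49.2, 42.8 and 50.5 CPM in DMSO A, B and C. The groups did not overlap, but Cpd10 B and DMSO B differed by less than 1 CPM. Its log2 fold change was -0.33 (SE 0.15, 95% interval -0.68 to 0.012, edgeR adjusted p = 0.619), and without Cpd10 A it was -0.19. The difference in log2 CPM was -0.70 within set 1 and -0.052 within set 2. Reads from Tiparp and from the pseudogene 4931440P22Rik, which shares 223 exon bases on the opposite strand and held 549 counts in all, are uncertain where counting ignored strand. The patterns closest to Tiparp, the member with the highest mean CPM, were those of Trmt1, Derl1 and Klc4 (Pearson r of 0.989, 0.984 and 0.982 over 6 libraries). They were picked as the highest r of the same 8522 genes.

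Ahrr, the repressor that competes with AHR for ARNT (chromosome 13, 74211118 to 74292331, ENSMUSG00000021575), was low throughout, at 1.32, 0.710 and 0.745 CPM in Cpd10 A, B and C, against 1.43, 1.79 and 1.80 CPM in DMSO A, B and C. Cpd10 A lay close under DMSO A, and Cpd10 B and C lay further down. Ahrr had a log2 fold change of -0.85 (SE 0.42, 95% interval -1.82 to 0.13, edgeR adjusted p = 0.678).

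Cyp1a1 and Cyp1b1, the cytochrome P450 genes most used as readouts of the receptor, were near the limit of detection. Cyp1a1 (chromosome 9, 57687928 to 57703824, ENSMUSG00000032315) had 32, 2 and 4 counts in Cpd10 A, B and C, against 6, 16 and 8 counts in DMSO A, B and C. Its highest and its lowest library were both Cpd10 ones. The 32 counts of Cpd10 A equal 0.705 CPM, with an exact (Clopper-Pearson) 95% interval of 0.482 to 0.995 CPM for counting error alone. The 16 counts of DMSO B equal 0.440 CPM (0.252 to 0.715). In set 1, which holds Cpd10 A, DMSO A was at 0.134 CPM (0.0493 to 0.292) and DMSO C at 0.195 CPM (0.084 to 0.383). The difference in log2 CPM was 1.83 within set 1 and -1.97 within set 2. Without the filter, edgeR gave Cyp1a1 a log2 fold change of 0.19 (SE 1.11, adjusted p = 0.982). Cyp1b1 (chromosome 17, 79701537 to 79715061, ENSMUSG00000024087) had 2, 0 and 0 counts in Cpd10 A, B and C, against 6, 6 and 2 counts in DMSO A, B and C. By the same exact 95% interval, a count of 0 allows up to 0.0936 CPM in Cpd10 B and 0.0982 CPM in Cpd10 C. The Cpd10 and DMSO values of Cyp1b1 touch at 2 counts, so no order of the groups can be read at this depth. Stromal and endothelial cells are known to use Cyp1b1. The 9 markers of these cells summed to between 4.93 and 10.1 CPM in Cpd10 and between 11.9 and 20.7 CPM in DMSO, and Col3a1, Dcn and Pdgfra were at 0 in all libraries. Pecam1 made up most of the sum in DMSO and differed most, at 4.10 to 5.83 CPM in Cpd10 and 10.2 to 19.5 CPM in DMSO. Pdgfrb was at 0, 4.01 and 2.77 CPM in Cpd10 A, B and C, against 0.224, 4.51 and 0.146 CPM in DMSO A, B and C. It was higher in each library of set 2 than in each of set 1. The part of these markers in the Cyp1b1 counts was not tested.

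Nqo1, the quinone reductase gene that both NRF2 and AHR are known to drive (chromosome 8, 107388225 to 107403206, ENSMUSG00000003849), had the largest fitted difference of the 8 tested members. It was at 0.308, 0.355 and 0.532 CPM in Cpd10 A, B and C, against 1.93, 1.49 and 3.04 CPM in DMSO A, B and C. The raw counts were 14, 14 and 20 in Cpd10 libraries and 86, 54 and 125 in DMSO libraries. All Cpd10 libraries lay well under all DMSO libraries, in both sets. The mean was 0.399 ± 0.118 CPM in Cpd10 and 2.15 ± 0.801 CPM in DMSO (SD, n = 3 each), so Cpd10 stood at 18.5% of DMSO.

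The log2 fold change of Nqo1 was -2.43 (SE 0.48, 95% interval -3.54 to -1.32, unadjusted p = 0.00109). It ranked at place 141 of 15136 genes by p and did not pass edgeR's adjustment over all genes (adjusted p = 0.116). Within set 1 the difference in log2 CPM was -2.79, and within set 2 it was -1.66. DESeq2 called it (log2 fold change -2.44, adjusted p = 7.65e-04), as did edgeR without the filter (adjusted p = 0.0439) and edgeR with the set as a term (-2.34, adjusted p = 0.0286). No other setting without the set term called it: over RLE scaling, a larger prior count, limma-voom, the replicate block, halved counts and each left-out library the adjusted p ran from 0.0873 (without DMSO B) to 0.417 (without DMSO C). The call with the set term was kept without DMSO A (adjusted p = 0.0229). It was lost without Cpd10 A (0.411), Cpd10 B (0.0842), Cpd10 C (0.0586), DMSO B (0.0722) or DMSO C (0.0793), each by edgeR.

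Nfe2l2, the NRF2 gene itself (chromosome 2, 75675513 to 75704641, ENSMUSG00000015839), was at 28.7, 36.1 and 26.3 CPM in Cpd10 A, B and C, against 42.6, 38.9 and 40.8 CPM in DMSO A, B and C. The DMSO libraries lay close together and above all Cpd10 libraries. The mean was 30.3 ± 5.11 CPM in Cpd10 and 40.8 ± 1.86 CPM in DMSO (SD, n = 3 each). The log2 fold change was -0.43 (SE 0.14, 95% interval -0.75 to -0.10, edgeR unadjusted p = 0.0170, adjusted p = 0.421). Adding the set to the fit gave an edgeR adjusted p of 0.102. The difference in log2 CPM was -0.54 within set 1 and -0.34 within set 2. Its closest patterns were those of Zfp1, Zfp68 and Fnbp4 (Pearson r of 0.978, 0.977 and 0.976 over 6 libraries). They were picked as the highest r of the same 8522 genes, whatever the size of the difference. Fnbp4 ran only from 167 to 180 CPM.

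Hmox1, haem oxygenase (chromosome 8, 75093621 to 75100589, ENSMUSG00000005413), was at 8.68, 24.6 and 22.0 CPM in Cpd10 A, B and C, against 27.3, 30.2 and 17.6 CPM in DMSO A, B and C. Cpd10 A stood apart at the low end, and the other libraries of both groups overlapped. Hmox1 had a log2 fold change of -0.44 (SE 0.39, 95% interval -1.37 to 0.49, edgeR adjusted p = 0.855), which became -0.095 when Cpd10 A was left out, -0.71 when Cpd10 B was and -0.29 when DMSO B was. The difference in log2 CPM was -1.33 within set 1, where Cpd10 A is the only Cpd10 library, and -0.375 within set 2. With the set in the fit the log2 fold change was -0.86 (SE 0.29, edgeR adjusted p = 0.217). Macrophages also express Hmox1 strongly. Of 13 macrophage and monocyte markers, Marco, C1qa, C1qb and Vsig4 were at 0 in all 6 libraries, and 10 of the 13 (all but Adgre1, Cd68 and Spic) had at most 10 counts in any library. The whole list summed to between 56.9 and 63.8 CPM in Cpd10 and between 29.3 and 43.8 CPM in DMSO. Cd68, a lysosomal membrane gene, made up 47.6 to 50.2 CPM of this in Cpd10 and 15.0 to 21.5 CPM in DMSO. Adgre1 and Spic leaned the other way. Adgre1 was at 8.77 to 14.2 CPM in Cpd10 and 13.9 to 21.1 CPM in DMSO. Spic was at 0 to 0.304 CPM in Cpd10 and 0.403 to 0.606 CPM in DMSO. The part of these markers in the Hmox1 values was not tested.

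Srxn1, sulfiredoxin, which repairs oxidised peroxiredoxins (chromosome 2, 152105516 to 152111376, ENSMUSG00000032802), was at 0.837, 2.74 and 2.55 CPM in Cpd10 A, B and C, against 2.51, 1.93 and 1.78 CPM in DMSO A, B and C. As with Hmox1, Cpd10 A was the lowest library. Cpd10 B and C were the 2 highest. Srxn1 had a log2 fold change of -0.021 (SE 0.48, 95% interval -1.15 to 1.10, edgeR adjusted p = 0.994), and its sign turned without Cpd10 A (0.36) and without DMSO A (0.15).

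Gclm, the modifier subunit of the enzyme that limits glutathione synthesis (chromosome 3, 122245557 to 122270732, ENSMUSG00000028124), was at 38.6, 37.2 and 32.5 CPM in Cpd10 A, B and C, against 36.2, 31.6 and 36.0 CPM in DMSO A, B and C. The groups overlapped almost fully. The log2 fold change was 0.062 (SE 0.12), and its 95% interval of -0.21 to 0.34 was the narrowest of the 8 tested members (edgeR adjusted p = 0.935). It shares 296 exon bases with the opposite-strand transcript Gm17494, which held 336 counts in all.

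**Figure D2:**
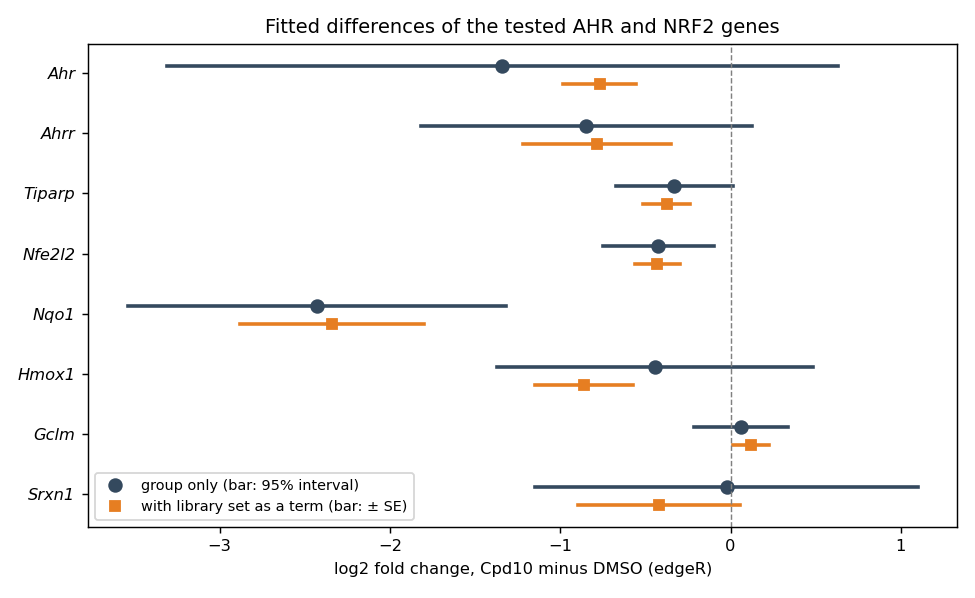
Fitted log2 fold change, Cpd10 minus DMSO (horizontal axis), of the 8 tested genes from edgeR with the group alone (circles, bars are 95% intervals) and with the library set as a term (squares, bars are ± SE). The intervals of Nqo1 (-3.54 to -1.32) and Nfe2l2 (-0.75 to -0.10) lie below 0, and those of the other 6 genes include 0; none is adjusted for the number of genes.

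To compare levels between genes, CPM was divided by the length of each gene's merged exons in kb. On this scale Hmox1 was highest, at 10.5 ± 4.89 CPM per kb in Cpd10 and 14.3 ± 3.77 CPM per kb in DMSO (SD, n = 3 each). Tiparp followed at 8.67 ± 1.44 CPM per kb in Cpd10 and 10.9 ± 0.946 CPM per kb in DMSO, and Nfe2l2 at 7.99 ± 1.35 CPM per kb in Cpd10 and 10.7 ± 0.489 CPM per kb in DMSO. These 3 neighbours did not differ beyond their spread. Gclm, at 5.74 ± 0.509 CPM per kb in Cpd10 and 5.50 ± 0.409 CPM per kb in DMSO, lay below Tiparp and Nfe2l2 in each library. Ahr ranged from 0.329 to 3.52 CPM per kb, a range that overlaps those of Nqo1 (0.199 to 1.96) and Srxn1 (0.297 to 0.971). Ahrr, Cyp1a1 and Cyp1b1 had the lowest means of the 10 genes, at 0.0752 to 0.191, 0.0182 to 0.253 and 0 to 0.0283 CPM per kb. In Cpd10 A, though, Cyp1a1 (0.253) lay above Nqo1 (0.199). Of the 4 AHR targets among the 10 genes, Tiparp was the highest in each library.

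**Figure D3:**
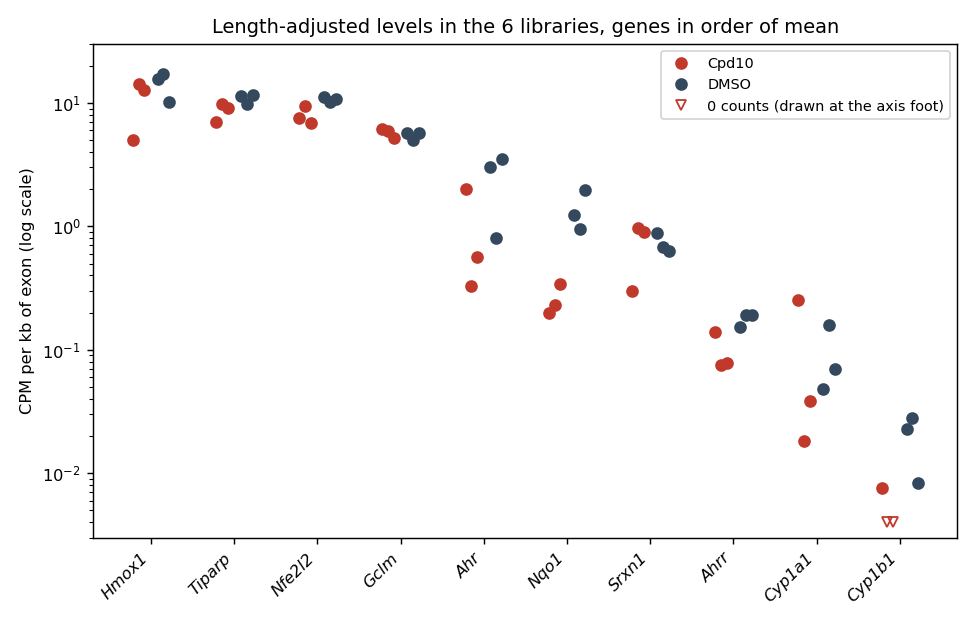
CPM per kb of exon (log axis) of the 10 genes in each Cpd10 and DMSO library, in order of the mean over libraries; open triangles are libraries with 0 counts. Hmox1, Tiparp and Nfe2l2 lie together at the top, and Cyp1a1 (0.0182 to 0.253) and Cyp1b1 (0 to 0.0283) at the bottom.

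Around the 10 genes, 8 lists of related genes (100 genes, 73 tested) were read from the same fit. None of the 73 passed edgeR's test over all genes; 12 of them (16.4%) had an unadjusted p under 0.05, 4 higher and 8 lower in Cpd10, beside 8.39% of all tested genes. Limma-voom called 0. DESeq2 called 4 (2 higher, 2 lower), beside 1.42% of its 25082 genes (0.817% higher, 0.602% lower), which include genes too low for the filter. With the library set in the fit, edgeR called 9 (3 higher, 6 lower), beside 3.96% (2.32% higher, 1.64% lower).

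The protein partners of AHR lay close to equal. Arnt, its dimerisation partner, was at 78.5, 68.2 and 70.3 CPM in Cpd10 A, B and C, against 73.4, 70.9 and 77.2 CPM in DMSO A, B and C. Its log2 fold change was -0.029 (SE 0.097, edgeR adjusted p = 0.962). The chaperone genes Ptges3 and Hsp90aa1 had -0.077 and 0.040, and none of the 5 tested genes of the list had an unadjusted p under 0.05 (list median -0.012).

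Of 11 further genes linked to AHR, 3 were tested and the others, among them Cyp1a2, did not pass the filter. Ido2, a tryptophan-degrading dioxygenase on the route to AHR ligands of the kynurenine type, was at 43.2, 26.1 and 31.3 CPM in Cpd10 A, B and C, against 13.6, 11.9 and 17.6 CPM in DMSO A, B and C. The groups did not overlap. Its log2 fold change was 1.22 (SE 0.23, edgeR adjusted p = 0.101), with an adjusted p of 9.87e-05 once the set was a term and of 9.36e-05 by DESeq2. Its neighbour Ido1 had -0.063 (SE 0.35, edgeR adjusted p = 0.981). Nebl, whose tie to AHR is less sure, was at 1.89, 13.9 and 12.3 CPM in Cpd10 A, B and C, against 69.5, 20.9 and 35.1 CPM in DMSO A, B and C. Each Cpd10 library lay below each DMSO library. The log2 fold change of Nebl was -2.16 (SE 0.80, edgeR adjusted p = 0.544, 0.534 with the set term and 0.346 by DESeq2).

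Among 11 regulators and partners of NRF2, all tested, Bach1 lay lowest by p. This repressor of NRF2 sites was at 17.2, 19.6 and 15.0 CPM in Cpd10 A, B and C, against 29.9, 24.8 and 33.5 CPM in DMSO A, B and C. The groups did not overlap, and the log2 fold change was -0.77 (SE 0.16, edgeR adjusted p = 0.133, 0.0174 with the set term and 0.00909 by DESeq2). Keap1, the sensor that destabilises NRF2, had 0.14 (SE 0.10, edgeR adjusted p = 0.817). Maff and Mafg, small MAF partners, had -0.93 and -0.22, and Sqstm1, an autophagy adaptor that binds KEAP1, had -0.32 (edgeR adjusted p = 0.613, 0.688 and 0.697). The list median was -0.22.

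Further NRF2 targets did not share a direction. Of 13 tested genes of glutathione and thioredoxin (median -0.12), the 3 with an unadjusted p under 0.05 were all lower in Cpd10: the export pumps Abcc4 (-0.41) and Abcc1 (-0.24) and the thioredoxin reductase Txnrd1 (-0.31), with edgeR adjusted p of 0.376, 0.552 and 0.402. Txnrd1 was at 126, 139 and 126 CPM in Cpd10 A, B and C, against 167, 169 and 147 CPM in DMSO A, B and C. Abcc4 and Txnrd1 were called with the set term (edgeR adjusted p = 0.0473 and 0.0477). Txn1, its substrate thioredoxin, had 0.24 (edgeR adjusted p = 0.605).

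Of 17 tested genes of NADPH and iron (median -0.0052), 3 had an unadjusted p under 0.05 and were higher in Cpd10, and 2 were lower. Blvrb, a biliverdin reductase, was at 35.3, 47.3 and 42.5 CPM in Cpd10 A, B and C, against 20.6, 31.2 and 19.0 CPM in DMSO A, B and C (log2 fold change 0.82, SE 0.21, edgeR adjusted p = 0.256, 0.00430 with the set term and 0.0183 by DESeq2). Fech, which inserts iron into haem, had 0.39, and Slc48a1, a haem transporter named after its value was seen, had 0.36 (edgeR adjusted p = 0.310 and 0.568; 0.0770 and 0.0156 with the set term). Ftl1, the ferritin light chain, had -0.36, and Osgin1 had -1.22 (edgeR adjusted p = 0.452 and 0.529; 0.123 and 0.0276 with the set term). Red cell genes are another place where haem genes are used. Of 7 erythroid markers, Hba-a1 and Hba-a2 were at 0 in all libraries, and the list summed to between 2.62 and 3.35 CPM in Cpd10 and between 0.146 and 0.661 CPM in DMSO. Most of this was Hbb-bt, a beta globin gene named after its values were seen, with 99, 119 and 91 counts in Cpd10 A, B and C and 8, 8 and 0 counts in DMSO A, B and C. The part of these transcripts in the values of Blvrb and Fech was not tested.

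The nuclear receptor list (14 genes, 6 tested, median 0.0056) held 1 gene with an unadjusted p under 0.05. This was Rxra, a shared partner of nuclear receptors, at 4.32, 4.16 and 2.40 CPM in Cpd10 A, B and C, against 11.2, 5.28 and 12.5 CPM in DMSO A, B and C (log2 fold change -1.41, SE 0.38, edgeR adjusted p = 0.291, 0.0484 with the set term and 0.00947 by DESeq2). Por, the electron donor of microsomal P450 enzymes, had 0.046 (SE 0.084, edgeR adjusted p = 0.931). Rxrb and the efflux pump gene Abcg2 had 0.0036 and 0.25. Heat shock genes (14 tested, median 0.041) had 0 with an unadjusted p under 0.05, and Hspa8, Dnaja1 and Chordc1 had 0.20, 0.061 and -0.10. Hspb1 had -0.99 (edgeR adjusted p = 0.825, falling to 0.0269 once the set was in the fit). Of the metal response genes (4 tested, median -0.27), 0 had an unadjusted p under 0.05; Mt1 and Mt2, the metallothioneins, had -0.59 and -1.13, and Mtf1 and Slc30a1 had 0.074 and 0.046.

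**Figure D4:**
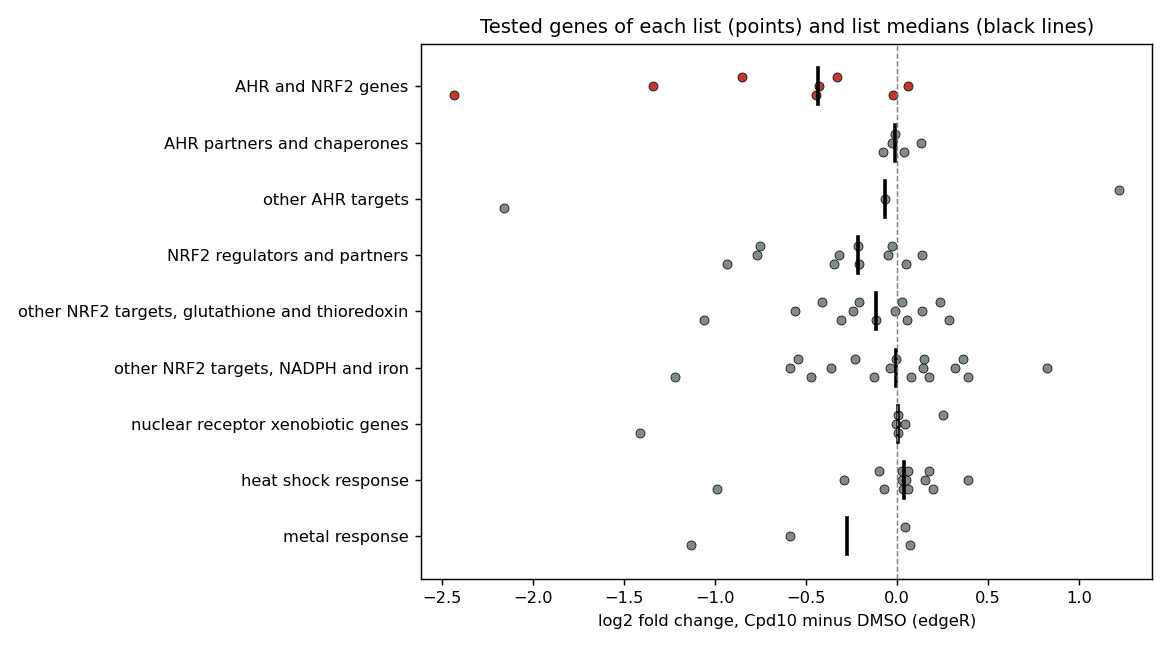
Log2 fold change, Cpd10 minus DMSO (horizontal axis), of each tested gene in the AHR and NRF2 set (red) and in the 8 related lists (grey); black lines are list medians. The medians run from -0.43 for the AHR and NRF2 genes to 0.041 for heat shock genes, and none of the points passed edgeR's test over all genes.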

How the data were processed

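RNA was measured in 6 libraries of cultured mouse B cells by poly A selected, directional sequencing. The authors deposited raw read counts per gene; per the submitters' processing notes the tools were STAR 2.7.10a, featureCounts 2.0.6 and DESeq2 on GRCm38. Strand and read-pair settings are not given in the sources used here. Symbols, coordinates and merged exon lengths came from GENCODE M21, which held 54809 of the 54838 identifiers.

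The groups were compared with edgeR 4.0.16 in R 4.3.3: TMM scaling, filterByExpr (minimum count 10, here 0.245 CPM in 3 libraries), a robust quasi-likelihood fit with the group as the only term, and Benjamini-Hochberg adjustment over 15136 genes. A call means an adjusted p under 0.05. Fold changes (log2) run as Cpd10 minus DMSO, and the SE is the fold change over the square root of F. The fits were tested on simulated counts with known changes and no library sets. A limit on false calls was applied there to edgeR and limma-voom, but not to DESeq2.

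The library set is the split into 3 and 3 with most genes at 3 counts or fewer in one set and 50 or more in the other; being read from these counts, its p-values are exploratory. Alternatives were DESeq2 1.42.0, limma-voom (limma 3.58.1), other scaling, no filter, a replicate block, the set term, halved counts and leaving out each library. Nothing in the labels explains the letters A to C. The p-values therefore rest on the spread among these libraries alone, and that spread may be technical. Libraries of a group differed beyond sampling noise (chi-square per degree of freedom 12.3 to 176).

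The members and lists were chosen with earlier results of these data known. The genes named are all 10 members, the 4 tested genes of each list with the smallest p, Arnt, Keap1 and Bach1, and the 3 genes most correlated with Ahr, Nfe2l2 and Tiparp over the libraries, with clone names and immunoglobulin segments left out; others are marked, and 1 gene that the rule names is not reported here. No set test was run.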

Additional observations from a re-analysis of the deposited data

How the results depend on the processing

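Of 112 alternative fits of the 8 tested members, 107 kept the direction and the side of the threshold. Nqo1 passed the threshold in 3, at log2 fold changes of -2.43 without the filter, -2.44 by DESeq2 and -2.34 with the set as a term. Srxn1 changed sign in the other 2, and ran from -0.29 to 0.36 with 1 library left out; the cause was not tested. With the set term, leaving out 1 library moved Nqo1 between -3.00 and -1.73, and the number of called members between 0 and 3: Ahr, Nqo1 and Hmox1 without DMSO A, Tiparp and Hmox1 without DMSO B, Nfe2l2 without Cpd10 B and 0 otherwise, all lower in Cpd10. Over all genes these fits called 907 of 15742 without DMSO A, 437 of 15812 without DMSO B, 343 of 15808 without Cpd10 B, and from 130 of 15773 (without Cpd10 A) to 622 of 15740 (without DMSO C) in the rest. Without DMSO B the set term leaves Cpd10 A against DMSO A and C. Without Cpd10 A the set term leaves Cpd10 B and C against DMSO B.

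Among all genes, edgeR called 56 (48 higher, 8 lower), against 194 without the filter, 356 by DESeq2 and 599 with the set term. With 1 library left out it called between 0 and 100: 0 without Cpd10 C (843 at an unadjusted p under 0.05), 1 without Cpd10 B, 1 without DMSO C, 5 without DMSO A, 77 without Cpd10 A and 100 without DMSO B. Called members were 1 under each of no filter, DESeq2 and the set term. Other lists had 0 in the main comparison. DESeq2 called 1 in each of the AHR-linked, NRF2 regulator, NADPH and iron, and nuclear receptor lists. EdgeR without the filter called 1 in each of the AHR-linked and NRF2 regulator lists. With the set term it called 1 in each of the AHR-linked, NRF2 regulator, nuclear receptor and heat shock lists, 2 in the glutathione list and 3 in the NADPH and iron list. Without the set term and with 1 library left out, the NADPH and iron list had 0 to 1.

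The replicate block called 49 genes and 0 members. The letters were not taken as pairs: deviations from the group mean correlated at 0.309 (A), 0.432 (B) and -0.315 (C) over 15136 genes, and Cpd10 A and C correlated best with DMSO C and B (0.464 and 0.411). Halving all counts, chosen after seeing the data, called 58 genes and 0 members (Nqo1 adjusted p = 0.108, edgeR). At this depth Cyp1a1 and Cyp1b1 were too low to be tested in the main comparison.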
